A study of Hypsibius exemplaris with 24 samples.

Results

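The table of transcript levels of *Hypsibius exemplaris*, a freshwater tardigrade, holds 20853 transcripts of 19939 loci, and 821 of these loci are listed with 2 or more isoforms. The loci described here are the 169 in which at least 2 isoforms each had a mean of at least 10 TPM over all 24 libraries; 345 isoforms reached that mean. TPM is the abundance of a transcript relative to all transcripts of its library, corrected for length. RNA was sequenced from pools of 50 whole animals, 3 pools in each of 8 groups, after treatment with bleomycin, which causes DNA strand breaks. The treated pools spent 24 h in 100 µM bleomycin; a first set was frozen at once (0 h), and the others were washed, placed on agar plates with the alga *Chlorella* at 18 °C and frozen 1, 3, 6, 9, 12 and 24 h later. The control pools spent the exposure in mineral water alone and were frozen together with the 0 h pools. The control was taken once. Only 0 h against control therefore compares pools of like handling; at later times washing, feeding, the new surface and elapsed time differ from control as well.

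One locus can give several mature RNAs through alternative promoters, alternative splicing of the primary transcript and alternative polyadenylation sites. The isoforms may differ in the protein they encode, or only in their untranslated ends, and with these in stability, localization or translation. In mammalian cells, agents that damage DNA are known to change the splicing of many transcripts. Short reads mostly fall in sequence that isoforms share, and RSEM assigns such reads to isoforms by a likelihood estimate, so an isoform's level is less certain than the sum over its locus. The table does not pair its identifiers with gene names, so loci are given by identifier and the suffix of each isoform (t01, t02, t03), and no function is given for them.

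The libraries had from 14984 to 17173 transcripts with a TPM above 0. TPM values do not retain sequencing depth, which is therefore unknown for each share, and no counting error can be given. Within a group, Pearson's r of log2(TPM + 1), taken across transcripts as a description, was 0.946 to 0.977 in the treated groups and 0.928 to 0.971 in control. No library pair held identical values (0 pairs). The labels do not say whether pools of a group came from separate cultures, so p-values measure the spread between these pools. In pools of whole animals, fewer cells of a type and less RNA per cell cannot be told apart.

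The members were chosen on their mean level over all libraries, and that level is given here as a description. Of the 345 isoforms, 188 had a group mean of at least 10 TPM in all 8 groups and 27 had one in 4 or fewer groups, down to 2 groups for 2 isoforms. Just inside the threshold lay BV898_04894.t02 with 10.14 TPM and BV898_03857.t02 with 10.24 TPM, and just outside it BV898_01049.t02 with 9.923 TPM and BV898_02413.t01 with 9.921 TPM. All 169 loci and 345 isoforms passed the filter on low values (at least 1 TPM in at least 3 libraries). In BV898_18003 both isoforms were listed with the same TPM in every library, for example 83.1, 72.1 and 83.4 TPM in control, so its shares carry no information and 168 loci were tested.

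By the choice of members, each of the 168 loci had at least 2 isoforms of at least 10 TPM on average. The main isoform was the one with the highest mean TPM over all libraries. That it led on average is therefore set by its definition. Its mean share of the locus total had a median of 63.4% and ranged from 38.1% in BV898_05340 to 93.7% in BV898_02526. It was under 60% in 60 loci and at least 80% in 15. The main isoform carried the suffix t01 in 77 loci, t02 in 84 and t03 in 7. Exactly 2 isoforms were listed for 145 loci and 3 or 4 for the other 23, of which 7 had at least 3 isoforms past 10 TPM. Locus totals had a median of 68.3 TPM and ranged from 21.8 to 1942 TPM.

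The 5 loci with the highest totals were BV898_10871, BV898_06618, BV898_05794, BV898_00184 and BV898_18518. In BV898_00184, with a mean total of 457 TPM, the main isoform's share moved little in percentage points. For an isoform with so high a share, a few points can be a larger relative change of the minor isoforms. Its isoform t01 held 92.2% ± 2.14 of the total in control, and 86.5% ± 0.568, 89.6% ± 3.78, 92.05% ± 3.19, 91.2% ± 1.60, 92.2% ± 3.86, 88.9% ± 6.79 and 89.1% ± 2.03 from 0 h to 24 h in order of time (SD, n = 3 in each group here and below). The 5.73 points between the highest and lowest of these means are the smallest range among the 168 loci, while the locus total was 161 ± 63.6 TPM at 12 h and 834 ± 256 TPM at 1 h (limma, adjusted p = 7.27e-05 for the F test over all times). BV898_02526 and BV898_06702 followed it among loci whose total changed: the main isoform's group means spanned 7.36 points in BV898_02526 and 8.66 points in BV898_06702. In BV898_06702, t01 and t02 held near-equal shares, 49.3% and 50.7% on average.

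BV898_05794 and BV898_18518 kept their main isoform, t01, in all 24 libraries. In BV898_05794 the minor isoform t02 was listed at 87.5, 0 and 40.4 TPM at 1 h and at 46.9, 114 and 41.8 TPM in control, and it was listed at 0 in 9 of the 24 libraries. Its mean share was 0.978% ± 1.69 at 12 h and 19.9% ± 10.1 in control. The F test over all times did not pass (limma, adjusted p = 0.343). In BV898_18518 t01 held 72.8% ± 2.03 at 24 h and 61.55% ± 8.58 in control. It did not pass either (limma, adjusted p = 0.457).

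Loci with 3 well expressed isoforms were described in the order of their totals. BV898_10871 is treated below. BV898_04399 was led by t03 in all 24 libraries, with 58.7% ± 4.97 at 24 h and 52.9% ± 7.82 in control, followed by t02 with 34.7% ± 2.76 at 24 h and 43.6% ± 4.10 in control. Its t01 varied between 0 and 31.0% within 6 h alone. BV898_03788 was led by t01, with 60.1% ± 3.23 at 24 h and 76.7% ± 5.41 in control. In BV898_01446 t03 led at 24 h with 51.3% ± 4.01, and t02 in control with 47.6% ± 11.3. BV898_05340 was the most even, with 25.6%, 42.2% and 32.1% for t01, t02 and t03 in control. None of these last 4 loci passed the F test over all times (limma, adjusted p between 0.137 and 0.876), although all 4 passed it for the locus total.

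Isoform shares varied widely between replicate pools. The SD of the main isoform's share within a group, pooled over the 8 groups, had a median of 11.6 points and ranged from 3.04 to 39.4 points. The range of the 8 group means had a median of 25.3 points. The SD was larger at lower totals: its median was 7.48 points in the 43 loci of at least 100 TPM, 11.3 points in the 70 loci of 50 to 100 TPM and 20.1 points in the 55 loci under 50 TPM. A member isoform was listed at 0 in at least 1 library in 76 loci, and in 66 of these an isoform was listed at 0 in 1 library and at 10 TPM or more in another of the same group.

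The least reproducible loci were BV898_14783, BV898_10275 and BV898_19378, with SDs of 39.4, 37.9 and 34.4 points. In BV898_10275, t01 was listed at 0, 35.0 and 0 TPM in the 0 h libraries while t02 was at 41.4, 0 and 44.0 TPM. The total of that locus was steady at the same time, 40.1 ± 4.67 TPM at 0 h and 40.6 ± 6.14 TPM in control. The cause of such reversals within a group was not tested.

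**Figure D1:**
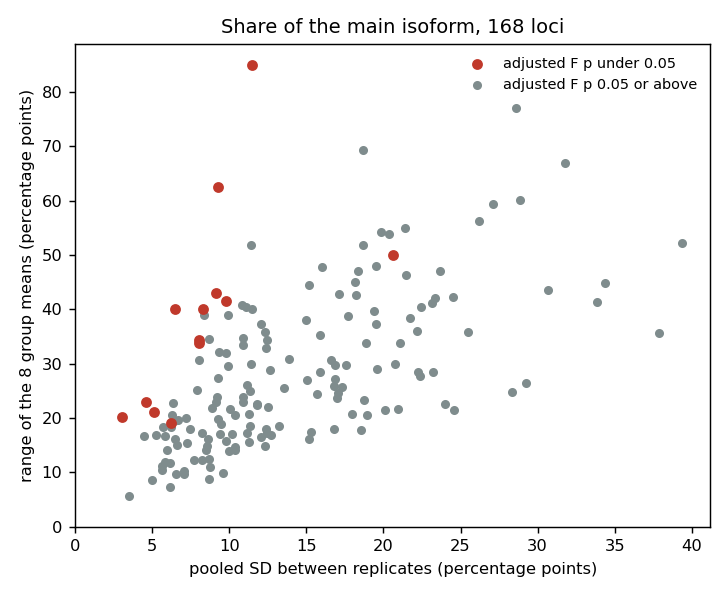
Each point is 1 of 168 loci, with the pooled SD of the main isoform's share between replicates on the x axis and the range of its 8 group means on the y axis, both in percentage points. The 13 red points, with adjusted F p under 0.05, have SDs between 3.04 and 20.6 points, and many loci with ranges as large have larger SDs.

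Whether the composition of a locus differed among the groups was tested on log2 ratios of each isoform to the summed other isoforms of its locus, after adding 1 TPM to each. Over all times 13 of the 168 loci (7.74%) had an adjusted p under 0.05 (limma, moderated F, Simes per locus, Benjamini-Hochberg over 617 loci), where 3.4% of all 617 loci tested did. They were BV898_10871, BV898_06618, BV898_12548, BV898_07922, BV898_13423, BV898_07620, BV898_00916, BV898_04810, BV898_01081, BV898_09062, BV898_15065, BV898_17810 and BV898_09752. At an unadjusted p under 0.05 there were 39, beside 61 of the 449 other tested loci. By level, 6 of the 13 had totals of at least 100 TPM, 6 had 50 to 100 TPM and 1 had less. Leaving out control replicate 1 gave 7 calls, and leaving out 24 h replicate 1, 2 or 3 gave 8, 6 or 6.

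The F test called 6 loci in every one of 32 alternatives as well: BV898_10871, BV898_06618, BV898_12548, BV898_07922, BV898_13423 and BV898_07620. The other 7 calls were each lost in 3 to 12 of the 32 alternatives. BV898_06618, with a mean total of 489 TPM, had its lowest mean share of t01 at 3 h. Its isoform t01 held 61.1, 66.1 and 64.25% of the total in control, 45.1, 46.1 and 54.0% at 3 h and 69.3, 71.6 and 70.7% at 24 h. All 3 libraries of 3 h lay below all control libraries, and the F test gave an adjusted p of 0.00976, but the contrast of 3 h with control alone did not pass (limma, log2 ratio change -0.91 with a standard error of 0.23, adjusted p = 0.0795).

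BV898_10871, which had the highest total of all (1942 TPM), was the locus with the lowest F p (limma, adjusted p = 8.42e-05) and the smallest SD between replicates, 3.04 points. Isoform t01 held 27.7, 29.7 and 32.4% of the total in control. Right after exposure it held 44.7, 40.2 and 41.0% (0 h), then 47.7, 47.8 and 39.2% (1 h), 42.2, 46.8 and 47.0% (3 h), and 51.7, 46.9 and 47.9% (6 h). The last 3 groups had 47.1, 44.4 and 40.7% (9 h), 49.3, 44.3 and 47.8% (12 h), and 53.2, 47.7 and 49.3% (24 h). Every treated library lay above every control library. Isoform t02 led in control with 40.9, 42.5 and 38.7%, and its group means after exposure lay between 34.05% and 37.4%. Isoform t03 held 14.7, 15.6 and 15.0% at 24 h, against 31.4, 27.8 and 28.9% in control, with no overlap.

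**Figure D2:**
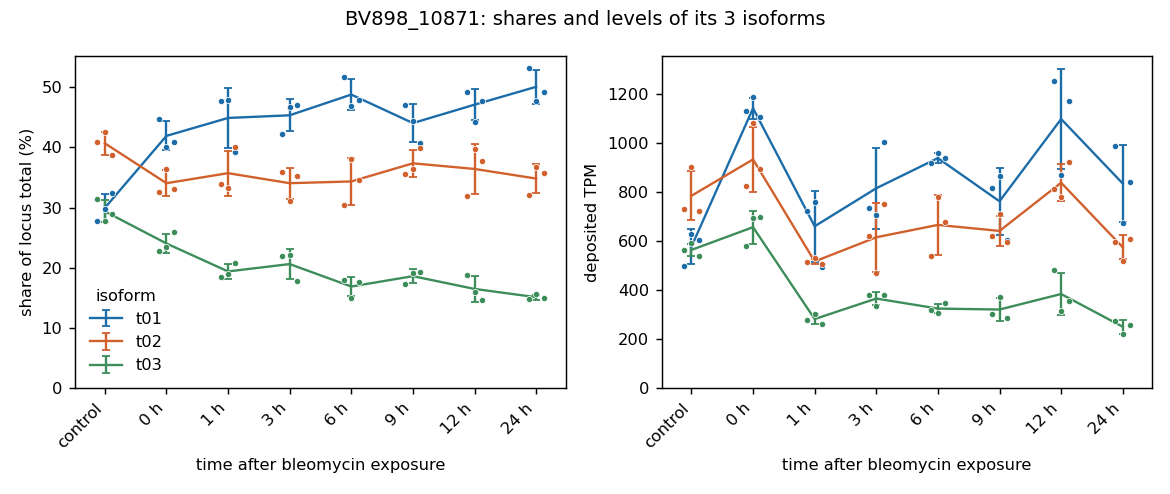
Shares of the locus total in percent (left) and deposited TPM (right) of the 3 isoforms of BV898_10871 by group; points are libraries, lines join group means and bars are SD (n = 3). In control t02 leads and t01 and t03 are close, and in all 7 treated groups t01 has the highest mean share.

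The rise of t01 was called at all 7 times against control, the one locus of 168 for which this held; these 7 contrasts share the control libraries. Relative to the rest of the locus, t01 was higher than in control by 0.76, 0.93, 0.96, 1.16, 0.88, 1.06 and 1.23 in log2 ratio from 0 h to 24 h in order of time, with a standard error of 0.14. For t03 the change was -0.40 at 0 h and -1.22 at 24 h, with a standard error of 0.13. The adjusted p of the locus was 0.0194 at 0 h and 5.25e-06 at 24 h (limma). In TPM, t03 was at 249.6 ± 27.5 at 24 h and 563.5 ± 25.6 in control, while t01 was at 835 ± 158 at 24 h and 577 ± 71.1 in control. The locus total was 2732 ± 216 TPM at 0 h and 1925 ± 174 TPM in control, which did not pass (limma, adjusted p = 0.0552). The call at 0 h was lost without 0 h replicate 1, control replicate 1 or control replicate 2, with adjusted p between 0.0613 and 0.133, and under limma's diffSplice the calls at 0, 1, 3 and 9 h were lost (adjusted p between 0.0908 and 0.240).

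At the end of the exposure, 0 h against control, a change of composition was called in 3 of 168 loci, where 0.972% of all tested loci were called: BV898_10871, BV898_07922 and BV898_01081. At an unadjusted p under 0.05 there were 21, beside 44 of the 449 other tested loci. The contrasts borrow their estimate of spread from all 24 libraries: with only the 2 groups compared in the fit, BV898_10871 alone kept a call, at 6 h and at 24 h. In BV898_07922 isoform t01 held 64.6, 93.1 and 100% at 0 h, against 59.96, 46.4 and 39.6% in control. The groups did not overlap, but the lowest 0 h library and the highest control library lay close together. Isoform t02 was at 12.8, 1.39 and 0 TPM at 0 h and 23.9, 26.9 and 45.2 TPM in control, while t01 was at 23.3, 18.9 and 20.1 TPM at 0 h and 35.8, 23.3 and 29.6 TPM in control. The t01 log2 ratio was higher by 2.83 (standard error 0.66, limma, adjusted p = 0.0335). That call did not survive leaving out any 1 control library, 0 h replicate 2 or 0 h replicate 3 (adjusted p between 0.0731 and 0.141), and over all 34 alternatives the adjusted p ran from 0.00103 to 0.744.

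In BV898_01081 the total itself was low at 0 h. Isoform t02 was listed at 0 in each of the 3 libraries taken at 0 h and at 26.0, 8.93 and 38.0 TPM in control, and t01 was at 2.80, 3.98 and 1.53 TPM at 0 h and 6.03, 0 and 14.1 TPM in control. The locus total was 2.77 ± 1.23 TPM at 0 h and 31.0 ± 21.6 TPM in control (limma, log2 fold change of the scaled total -2.71, adjusted p = 0.000818). The change of composition passed the test (limma, adjusted p = 0.0194), was lost without control replicate 2 (adjusted p = 0.133), and at so low a total rests on t01 levels of a few TPM. At every later time t02 had the higher mean share. Of the 3 calls, 1 was left without control replicate 1 and 0 without control replicate 2.

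From 1 h to 9 h few loci were called. At 1 h BV898_10871 was the 1 locus called, where 0.162% of all tested loci were; 2 were called at 3 h (0.486% of tested loci). Another 2 were called at 6 h (0.648%), and 9 h gave 3 calls (0.81%). Unadjusted p was under 0.05 for 26, 27, 19 and 21 loci in order of time. Among the 449 other tested loci it was for 38, 33, 42 and 38. The second locus at 3 h was BV898_02708, in which t01 held 69.4, 77.1 and 65.9% at 3 h, against 39.4, 19.3 and 37.0% in control. All 3 h libraries lay far above all control libraries. Its t02 was at 24.8, 23.9 and 31.4 TPM at 3 h and 82.0, 121 and 92.1 TPM in control, while t01 was at 56.2, 80.3 and 60.8 TPM at 3 h and 53.2, 29.0 and 54.1 TPM in control. Its t01 log2 ratio was higher by 2.39 (standard error 0.50, limma, adjusted p = 0.0190). Without 3 h replicate 1, 3 h replicate 2 or control replicate 2 the adjusted p was between 0.0808 and 0.172.

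BV898_07620 was called at 6 h and 9 h. Its isoform t02 held 72.8, 88.9 and 71.2% at 6 h and 74.3, 85.1 and 68.5% at 9 h, against 43.8, 34.6 and 40.5% in control. The libraries of 6 h and 9 h lay above all control libraries, and by 24 h t02 was at 50.2, 31.8 and 26.2%, around the control values. In TPM, t02 was at 115, 144 and 141 at 6 h and 69.8, 57.2 and 69.5 in control, and t01 was at 43.0, 18.0 and 57.0 at 6 h and 89.5, 108 and 102 in control. The locus total was 172.7 ± 22.0 TPM at 6 h and 165.5 ± 6.16 TPM in control (limma, log2 fold change 0.18, adjusted p = 0.490). For t02 the log2 ratio was higher by 2.48 at 6 h and 2.30 at 9 h (standard error 0.52, limma, adjusted p = 0.0152 at 6 h and 0.0394 at 9 h). The call at 6 h was lost without any 1 control library or 6 h replicate 2 (adjusted p between 0.0519 and 0.127), which left 1 call at that time. That at 9 h was lost without 9 of the 24 libraries (adjusted p between 0.0524 and 0.142), among them all 3 controls and 9 h replicates 1 and 2.

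The third locus at 9 h, BV898_12548, was called at 9, 12 and 24 h. Its minor isoform t01 held 58.2, 52.8 and 41.0% at 9 h, against 18.8, 16.3 and 13.6% in control. All 9 h libraries lay above all control libraries, as did those of 12 h with 49.0, 33.2 and 47.7% and of 24 h with 44.1, 43.6 and 32.4%. In level, t01 was at 104, 114 and 90.4 TPM at 9 h and 17.5, 11.0 and 16.3 TPM in control, and t02 at 74.5, 102 and 130 TPM at 9 h and 75.5, 56.2 and 104 TPM in control. The total was 205 ± 22.8 TPM at 9 h and 93.3 ± 26.4 TPM in control (limma, log2 fold change 1.32, adjusted p = 0.00017). Relative to t02, t01 was higher in log2 ratio by 2.34 at 9 h, 1.90 at 12 h and 1.71 at 24 h (standard error 0.44, limma, adjusted p = 0.00877, 0.0268 and 0.0358). Without 9 h replicate 1, 9 h replicate 2 or control replicate 3 the adjusted p at 9 h was between 0.0568 and 0.0653, and the call at 9 h was then lost. The call at 12 h was lost without any 1 control library, 12 h replicate 1 or 12 h replicate 3 (adjusted p between 0.0534 and 0.107). That at 24 h was lost without any 1 control library or any 1 library of 24 h (adjusted p between 0.0657 and 0.135), and on the arcsine scale (adjusted p = 0.0539).

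At 12 h, 5 loci were called, where 1.94% of all tested loci were: BV898_10871, BV898_12548, BV898_13423, BV898_09752 and BV898_18760. At an unadjusted p under 0.05 there were 34, beside 54 of the 449 other tested loci. In BV898_13423, t02 held 14.4, 17.1 and 15.0% in control, 39.6, 54.5 and 59.6% at 12 h, and 15.6, 6.72 and 11.4% at 24 h. The 12 h libraries lay above all control libraries. The level of t02 was 17.4, 15.3 and 15.1 TPM at 12 h and 11.8, 16.3 and 10.7 TPM in control, with overlap. That of t01 was 26.6, 12.8 and 10.2 TPM at 12 h against 70.3, 79.0 and 61.0 TPM in control. Its t02 log2 ratio was higher by 2.43 (standard error 0.50, limma, adjusted p = 0.00778; 0.0510 without control replicate 3).

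In BV898_09752 the minor isoform t02 held 0, 10.9 and 11.6% at 12 h, against 25.9, 51.9 and 46.4% in control, and all 12 h libraries lay below all control libraries. In level, t01 was at 21.1, 29.0 and 16.4 TPM at 12 h and 154, 88.9 and 89.0 TPM in control, and t02 at 0, 3.56 and 2.16 TPM at 12 h and 53.9, 95.8 and 77.0 TPM in control. The log2 ratio of t01 was higher by 2.68 (standard error 0.55, limma, adjusted p = 0.00778), and the adjusted p was between 0.0514 and 0.0736 without 12 h replicate 1, control replicate 2 or control replicate 3. BV898_18760, not taken by the naming rule and added after its values were seen, had t02 at 65.9, 79.6 and 88.7% at 12 h and 32.6, 58.2 and 46.8% in control (limma, adjusted p = 0.0421, lost in 15 of 34 alternatives). Of the 5 calls at 12 h, 3 were left without control replicate 1, control replicate 2 or 12 h replicate 1, and 1 without control replicate 3.

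At 24 h, 7 loci were called, where 3.08% of all tested loci were: BV898_10871, BV898_12548, BV898_00916, BV898_06409, BV898_02708, BV898_09062 and BV898_17810. At an unadjusted p under 0.05 there were 34, beside 47 of the 449 other tested loci. In BV898_00916, whose total was lower at 24 h (107 ± 31.1 TPM) than in control (216 ± 31.7 TPM), t01 held 39.0, 65.3 and 69.5% at 24 h, against 17.2, 21.6 and 14.7% in control. The 24 h libraries lay above all control libraries but were widely spread. Isoform t02 was at 60.4, 48.8 and 24.4 TPM at 24 h and 185, 191 and 155 TPM in control, while t01 was at 38.5, 92.0 and 55.6 TPM at 24 h and 38.3, 52.6 and 26.8 TPM in control. The log2 ratio of t01 was higher by 2.67 (standard error 0.44, limma, adjusted p = 0.00124), and the call was kept in all 24 fits that left out 1 library.

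In BV898_06409, t01 held 74.2, 52.3 and 46.9% at 24 h, against 25.6, 6.72 and 20.6% in control, with no overlap. Its t02 was at 10.2, 26.4 and 17.7 TPM at 24 h and 84.1, 117 and 67.9 TPM in control. The log2 ratio of t01 was higher by 2.81 (standard error 0.63, limma, adjusted p = 0.0167; 0.0965 and 0.101 in the fits without 24 h replicate 1 or control replicate 2). BV898_02708 was called again at 24 h, with t01 at 62.0, 61.3 and 65.2% at 24 h and 39.4, 19.3 and 37.0% in control (limma, adjusted p = 0.0418, lost in 12 of 24 fits without 1 library, up to 0.259).

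BV898_09062 and BV898_17810 were not taken by the naming rule and were added after their values were seen. In BV898_09062, t01 held 90.0, 89.6 and 89.3% at 24 h, against 73.8, 75.6 and 76.8% in control, a change of 1.36 in log2 ratio (standard error 0.34, limma, adjusted p = 0.0329), and it was the main isoform in all 24 libraries. This call was lost in 10 of 34 alternatives, among them the fits without any 1 control library or any 1 library of 24 h (adjusted p between 0.0594 and 0.133), diffSplice (0.157), the arcsine scale (0.0693) and a pseudocount of 5 TPM (0.0731). BV898_17810 is listed with 4 isoforms, of which 2 are members. With a minimum mean of 10 TPM per isoform, which keeps those 2, its adjusted p at 24 h was 0.429 (limma). That of its F test over all times was then 0.243. The count of 7 at 24 h was 3, 2 and 4 without control replicates 1, 2 and 3, and 3 without any 1 of the 24 h libraries.

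**Figure D3:**
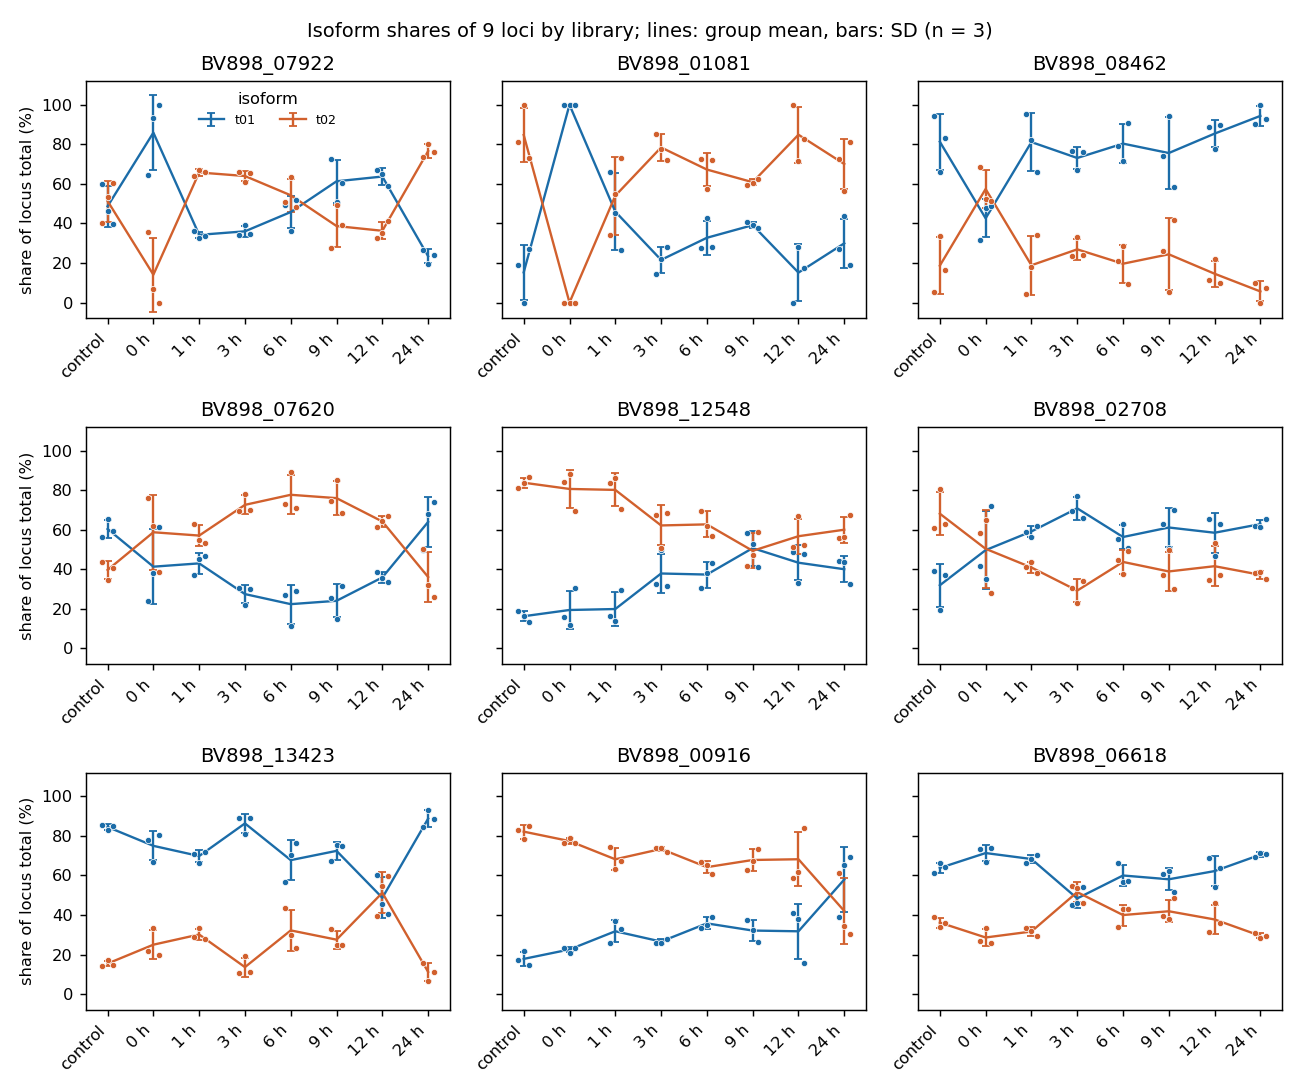
Shares of the locus total (percent, y axis) of the 2 isoforms of 9 loci in control and at 7 times after bleomycin; points are libraries, lines join group means and bars are SD (n = 3). The upper row shows BV898_07922 and BV898_01081, called at 0 h against control, and BV898_08462, called only at 24 h against 0 h. The middle row shows loci called against control between 3 h and 12 h. The lower row shows BV898_13423, BV898_00916 and BV898_06618, described above for 12 h, 24 h and 3 h. For BV898_01081 at 0 h the shares are of a total of 2.77 TPM.

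The 2 contrasts with control on neither side were 1 h against 0 h, which covers the move to plates and food, and 24 h against 0 h. Their spread was still estimated from all 24 libraries, control included. At 1 h against 0 h, 25 loci had an unadjusted p under 0.05, beside 55 of the 449 other tested loci. After adjustment 1 locus was called (0.162% of tested loci). This was BV898_07922, whose t02 held 63.9, 67.3 and 66.1% at 1 h, against 35.4, 6.86 and 0% at 0 h, with no overlap. It was at 43.5, 42.6 and 47.7 TPM at 1 h and 12.8, 1.39 and 0 TPM at 0 h, a log2 ratio higher by 3.67 (standard error 0.66, limma, adjusted p = 0.00855). Leaving out 0 h replicate 1, 2 or 3 gave 4, 0 or 2 calls, and leaving out 1 h replicate 2 gave 0.

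At 24 h against 0 h, 11 loci were called, where 3.57% of all tested loci were. At an unadjusted p under 0.05 there were 41, beside 71 of the 449 other tested loci. In BV898_07922, t02 was the main isoform at 24 h with 73.5, 80.3 and 75.9% and the minor one at 0 h with 35.4, 6.86 and 0% (limma, log2 ratio change 4.41 with a standard error of 0.66, adjusted p = 0.000636). In BV898_08462, t01 held 90.3, 100 and 92.8% at 24 h, against 31.4, 47.6 and 48.8% at 0 h. All 24 h libraries lay far above all 0 h libraries, and the control libraries, at 94.4, 66.2 and 83.3%, were nearer to those of 24 h. This locus was not called at 0 h against control. Its t02 was at 7.18, 0 and 6.31 TPM at 24 h and 27.9, 22.7 and 29.5 TPM at 0 h, and t01 at 66.8, 75.3 and 81.9 TPM at 24 h and 12.8, 20.6 and 28.1 TPM at 0 h (limma, log2 ratio change of t01 4.69 with a standard error of 0.94, adjusted p = 0.00328).

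The other 9 loci called at 24 h against 0 h included BV898_10871, BV898_01081 and BV898_00916, described above; that of BV898_01081 (limma, adjusted p = 0.0321) was lost in 6 of 34 alternatives, with values up to 0.174. BV898_15065, BV898_04810, BV898_00706, BV898_18257, BV898_09062 and BV898_17810 were added after their values were seen. In BV898_15065, t01 held 82.3, 83.4 and 92.3% at 24 h and 61.9, 29.5 and 37.3% at 0 h (limma, adjusted p = 0.00270). In BV898_04810, the minor isoform t02 held 34.6, 31.9 and 25.5% at 24 h and 10.9, 4.44 and 3.15% at 0 h (limma, adjusted p = 0.00328), and t01 led in all 24 libraries. In BV898_00706, t02 held 42.6, 41.0 and 47.8% at 24 h, against 18.7, 0 and 20.4% at 0 h (limma, adjusted p = 0.0278). That call was lost without 0 h replicate 2 or any 1 library of 24 h (adjusted p between 0.0698 and 0.112) and with a pseudocount of 0.1 TPM (0.0679). Isoform t01 of BV898_18257 held 43.5, 49.1 and 53.0% at 24 h, against 35.7, 27.7 and 31.5% at 0 h (limma, adjusted p = 0.0361). It was lost in 8 of 34 alternatives, among them the fits without 0 h replicate 2 or 3 or 24 h replicate 2 or 3 (adjusted p between 0.0651 and 0.175), diffSplice (0.200) and quality weights (0.0682). The call of BV898_17810 (limma, adjusted p = 0.00328) was lost in 4 of 34 alternatives. Among these were a minimum mean of 10 TPM per isoform, which keeps only its member isoforms (0.242), diffSplice (0.0615) and the arcsine scale (0.0639).

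The main isoform, by mean share in a group, differed between at least 2 of the 8 groups in 85 of the 168 loci (50.6%), where 56.2% of all 617 tested loci had such a difference. In 83 loci the same isoform led in all groups, and BV898_11529 and BV898_14258 had 3 different main isoforms. These counts carry no test, and only 10 of the 85 loci also passed the F test. The number of loci whose leading isoform in a group was not the overall main isoform was 20 in control, and 29, 26, 21, 15, 27, 26 and 23 from 0 h to 24 h in order of time. In 42 loci the main isoform was the highest in all 24 libraries.

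A stricter count took loci in which 1 isoform was the highest in all 3 libraries of a group and another in all 3 libraries of another group. It held 28 of 168 loci (16.7%), where 14.1% of all tested loci met it. Of the 28, 4 also passed the F test: BV898_10871, BV898_07922, BV898_07620 and BV898_01081. BV898_02708 and BV898_08462 passed in a contrast only. In BV898_10871 t02 led in all control libraries and t01 in all libraries of 0, 3, 6, 9, 12 and 24 h. In BV898_07922 the lead changed more than once, with t01 ahead in 3 of 3 libraries at 0, 9 and 12 h and t02 at 1, 3 and 24 h. In BV898_07620 t01 led in all control libraries and t02 in all libraries of 1, 3, 6, 9 and 12 h. In BV898_01081 t01 led in all libraries of 0 h and t02 in all of control, 3, 6, 9, 12 and 24 h.

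The other 24 of the 28 loci did not pass the F test (limma, adjusted p between 0.0921 and 0.829). Of all 28, 13 had mean totals under 50 TPM and 19 had SDs above 10 points. The group that stood alone against every other group with a uniform leader was control in 4 loci, 24 h in 5, 12 h in 4, 0 h in 4, 3 h in 2, and 6 h and 9 h in 1 each. Among the loci with 24 h alone were BV898_01446, in which t03 held 55.7, 50.4 and 47.8% at 24 h and 37.5, 36.6 and 47.9% in control, with overlap, and BV898_16150, BV898_17936, BV898_14968 and BV898_00315, named after their values were seen. BV898_06702 is counted among the 28 although its group means differed by at most 8.66 points, since its 2 isoforms held close to equal mean shares.

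Changes of the locus total were called far more often than changes of composition. These tests differ in precision and in the number of loci adjusted over, so a share not called may still have changed. Taken as log2(scaled total + 1), 166 of the 169 loci (98.2%) had an adjusted F p under 0.05 (limma), where 70.9% of all 15820 loci tested did; the members were chosen for a high level, which most loci do not have. Among the 168 loci with both tests, 13 were called in total and share, 152 in total alone, 0 in share alone and 3 in neither. Of the 23 share calls against control, counted by locus and time, 14 came with a called change of the locus total at the same time. Among all 169 loci, totals were called in 11.8, 36.1, 58, 42, 47.9, 81.7 and 71% from 0 h to 24 h in order of time. No link between share and total is therefore read from the 14.

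At 0 h against control, 8 totals were higher and 12 lower, where 4.19% and 4.61% of all loci were. With quantile normalization in place of the scale factors the split at 0 h was 11 higher and 10 lower, so no direction is read from it. Lower totals outnumbered higher ones at each later time. The 1 h pools had 13 higher and 48 lower (10.2% and 10.1% of all loci) and the 3 h pools 19 and 79 (17.6% and 17.1%). The 6 h pools had 16 and 55 (11.7% and 10.5%) and the 9 h pools 14 and 67 (14.0% and 12.6%). The 12 h pools had 31 and 107 (26.4% and 26.0%) and the 24 h pools 30 and 90 (26.5% and 23.0%). Against 0 h they were 24 higher and 42 lower at 1 h (13.5% and 11.2%) and 37 and 83 at 24 h (26.0% and 22.5%). The median log2 change of the members' totals against control was -0.16 at 0 h, -0.89 at 12 h and -0.66 at 24 h, beside -0.03, 0.01 and 0.06 over all loci. The scale factors hold the median over all loci near 0, so it is no separate comparison. Other loci of like level were not set beside the members. Without scaling, the median of all loci itself moved by -0.50 at 12 h and -0.28 at 24 h and by -0.09 to -0.16 at the other times, and the counts were 22 higher and 120 lower at 12 h and 21 and 103 at 24 h.

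The 20 totals called at 0 h became 10 if either control replicate 1 or control replicate 3 was left out, and 9 or 8 if 0 h replicate 2 or 3 was. The 61 called at 1 h became 33 if control replicate 2 was left out and 36 or 38 if 1 h replicate 1 or 2 was. The same 1 h libraries brought the 66 calls at 1 h against 0 h to 39 or 43. Together the 345 isoforms held 2.38% ± 0.206 of all TPM in control, and 2.18% ± 0.131, 1.86% ± 0.0662, 1.65% ± 0.171, 1.79% ± 0.153, 1.64% ± 0.0212, 1.29% ± 0.0862 and 1.48% ± 0.248 from 0 h to 24 h in order of time. Every library from 1 h on lay below every control library. This share is relative to all transcripts of a library. Without scaling, the median of all loci itself moved by -0.50 in log2 at 12 h and -0.28 at 24 h. The fall at these times is therefore not wholly particular to these isoforms.

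**Figure D4:**
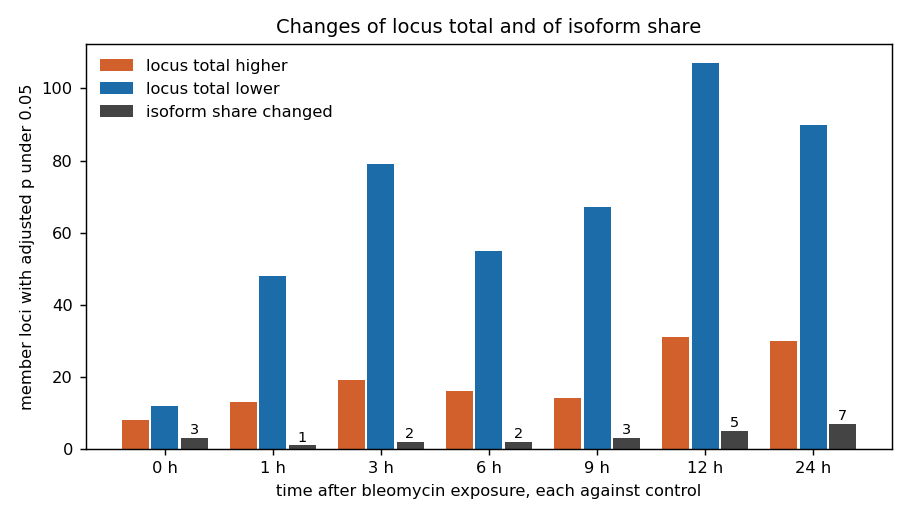
Number of member loci with adjusted p under 0.05 (limma) at each time against control, for the locus total (higher and lower, of 169) and for isoform shares (of 168, count printed above the bar). Lower totals number 12 at 0 h and 107 at 12 h, while changed shares number 3 at 0 h, 1 at 1 h and 7 at 24 h.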

How the data were processed

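The values are TPM of single transcripts that the authors deposited in 1 table covering all libraries. The submitters' processing notes name RSEM 1.2.26, Bowtie2 2.2.9, DESeq2 1.22.2 and FastQC 0.11.3 without their roles. Genome build and annotation: not given in the sources used here. Sequencing depth cannot be read from TPM. A value of exactly 0 may be an estimate that failed, so isoforms are described as listed at 0.

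Groups and replicate numbers came from the sample labels. The share of an isoform is its TPM over the summed TPM of its locus (the identifier without the isoform suffix). Log2((isoform TPM + 1)/(summed TPM of the locus' other isoforms + 1)) was fitted with limma 3.58.1 in R 4.3.3, with a mean per group over all 24 libraries, moderated with a level trend and robust settings, two-sided. A locus p was taken by Simes over its isoforms and adjusted by Benjamini-Hochberg over 617 loci with at least 2 isoforms of at least 1 TPM in at least 3 libraries, with a threshold of 0.05. The 1 TPM added to both sides draws a ratio towards 0, more strongly at low totals. Changes of low isoforms can thus be understated. A fall of the locus total can also move the ratio of unequal isoforms at unchanged shares. How far this entered the calls was not tested. Loci with identical isoforms (3, of which 1 is a member) were left out, a choice made after seeing the data. Locus totals were divided by a scale factor per library (0.664 to 1.18; median ratio over 12190 transcripts above 0 in all libraries) and tested with limma on log2(scaled total + 1) over 15820 loci. With 3 libraries a side, the smallest p of an exact permutation test is 0.1, so none was used. The fit of log ratios was tested on simulated data with 2 isoforms per locus, a constant locus total and no isoform listed at 0. The data differ from this in all 3 respects. The test of totals and the counts of main isoforms were not simulated. Alternatives were other pseudocounts and filters, limma's diffSplice, an arcsine scale, scaled TPM, quality weights, 2 groups fitted alone, a replicate block, other scalings and each library left out.

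Named loci follow a rule: for each contrast the 2 isoforms with the largest rise and the 2 with the largest fall among called loci without overlap between groups, strict changes of main isoform with a called F test, the highest totals, the most stable and least reproducible shares, loci with 3 member isoforms, and those at the threshold. The members, rule and tests were chosen with earlier results of these data known. Since the table gives no names, pathway and tissue marker lists were not used. Python 3.11.15 with matplotlib 3.10.9 drew the plots.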

Additional observations from a re-analysis of the deposited data

How the results depend on the processing

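Shares: counts of called loci, of 168. With only the 2 groups compared in the fit, the calls were 0 at 0, 1, 3, 9 and 12 h, 1 at 6 h, 1 at 24 h, 0 at 1 h against 0 h and 0 at 24 h against 0 h (limma; unadjusted counts in the main setting were 19 to 41). With a pseudocount of 5 TPM they were 3, 8, 13 and 11 for the 1, 3, 12 and 24 h pools and 3 for 1 h against 0 h. Under limma's diffSplice they were 2, 1, 4, 6 and 9 for the 1, 3, 6, 9 and 12 h pools and 3 for 1 h against 0 h. Quality weights gave 3 at 1 h and 5 at 3 h, a filter of mean 10 TPM gave 5 at 3 h, and the arcsine scale gave 3 at 24 h and 3 at 1 h against 0 h. The causes were not tested. Neither diffSplice nor 2 groups alone gives an F count. With members chosen at 5 TPM, the main isoform changed in 142 loci and strictly in 44, and at 20 TPM in 42 and 15, as more or fewer loci enter.

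Leaving out 1 library gave 6 to 15 loci by the F test. Against control the ranges from 0 h to 24 h, in order of time, were 0 to 3, 1 to 3, 1 to 4, 1 to 2, 1 to 4, 1 to 6 and 2 to 8. For 1 h against 0 h the range was 0 to 4, and for 24 h against 0 h it was 9 to 16. At 1 h the 1 call became 3 without 9 h replicate 2 and 2 without 9 h replicate 3; at 3 h the 2 calls became 1 without control replicate 2, 3 h replicate 1 or 3 h replicate 2 and 4 without 0 h replicate 1; at 9 h the 3 became 1 without control replicate 3, 9 h replicate 1 or 9 h replicate 2. The main isoform changed in 83 to 87 loci and strictly in 29 to 36, where a group of 2 libraries meets the strict rule more easily. For locus totals the ranges were 160 to 166 by the F test, and 8 to 27, 33 to 73, 77 to 100, 48 to 79, 61 to 90, 131 to 141 and 108 to 133 in the same order. The 1 h against 0 h totals gave 39 to 70, and those of 24 h against 0 h gave 110 to 128.

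Isoform log ratios gave no sign that replicate numbers pair the samples. Over 84 same-numbered pairs the correlation of their deviations from group means ran from -0.1 to 0.104, and 4 of 24 libraries were closest to their own number. Locus totals were not checked in this way, so pairing is not excluded. With a replicate block 12 loci passed the F test, and BV898_17810 (adjusted p = 0.067 with the block; 0.00165 to 0.352 over its alternatives) left it. The block also ended the calls of BV898_07922 at 0 h (adjusted p = 0.0532), BV898_12548 at 24 h (0.0517) and BV898_18257 at 24 h against 0 h (0.0541), and no other call of the text. No alternative reversed the direction of the largest rises and falls that the naming rule took for each contrast. The other changes given were not checked for direction. Precision is limited by 3 pools per group and by the unknown depth.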
